A study of Saccharomyces cerevisiae with 36 samples.

Results

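Bcl-w and its truncated form, labelled Bcl-w-trunc, were followed through the yeast 2-hybrid pools that hold them. They were taken by name, as rows and columns of the count matrices, and are 2 of 527 protein names in the libraries whose groups the labels give. Bcl-w stood in 4 library sets together with 5 other Bcl-2 homologues (Bcl-2, Bcl-xL, Bcl-B, Bfl-1 and Mcl1, the last a construct whose name carries a residue range) and 9 other proteins, taken here as the inhibitors that the title of the Bcl pool names. Bcl-w-trunc stood beside it in only 1 of these sets, L66. Both forms were also present in 2 sets of a pool of coiled-coil designs and PUMA variants, L71 and L72.

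Bcl-w is an antiapoptotic member of the Bcl-2 family. Proteins of this family hold a surface groove that binds the BH3 helix of proapoptotic partners such as PUMA, and inhibitors of the family are commonly built on that helix. The C-terminal end of Bcl-w is known to fold back onto its own groove. The residues that Bcl-w-trunc lacks, and the sequence of either construct, are not given in the sources used here.

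In the assay each yeast cell carried a plasmid with a pair of barcoded fusion proteins, and an interacting pair switched on HIS3, an enzyme of histidine synthesis. Cells were sampled after growth without histidine (after selection) and before it, in medium with histidine. The strain was the same in every group, MATa with leu2::pGAL6z-HIS3 as the reporter, his3-delta, trp1 and ura3-52, and also AGA1::GAL1-AGA1::URA3, leu2-delta200, pep4::BleoMX, prbd1.6R, can1 and GAL. The descriptions of all sets used give 1 mM 3-AT, a compound that blocks the HIS3 enzyme, whereas the shared growth protocol gives another concentration. L45 and L66 are the Bcl pool of 15 and 16 proteins, L44 and L49 are the DHD pool of 337 proteins (biological replicates 1 and 2), and L71 and L72 are the Coiled pool of 18769 ordered pairs (biological replicates 1 and 2). Each set had 1 library after and 1 before selection.

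The barcodes tell which protein each count stands for, and are shown because Bcl-w was not read through the same barcode in every pool.
Bcl-w in L45, L66, L71 and L72: attgggatcgctaagacgta
Bcl-w in L44 and L49: gcatctacac
Bcl-w-trunc in L66, L71 and L72: taaaccctatagggagtaat
The barcodes of the 2 forms in L66 differed at 19 of 20 positions, so a read of one was far from a read of the other. In L44 and L49 the 15 Bcl family proteins and inhibitors had barcodes of 10 bases, against 20 bases for the other proteins. In the maps of L44 and L49 the barcode of Bcl-w-trunc stood for another protein, DHDr2_19_A, and Bcl-w-trunc was not listed there.

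Depth for Bcl-w differed widely between the sets. As the row protein Bcl-w held 15416, 45029, 190908 and 577 reads after selection in L45, L66, L44 and L49, and 58225, 62329, 175246 and 4137 reads before it. As the column protein it held 14017, 35675, 28043 and 1109 reads after selection and 52325, 63778, 39608 and 10379 before. In L49 its median pair had 9 reads before selection as a row and 23 as a column, so single values of that set rest on few reads. In L45 single pairs without Bcl-w took large shares: BCDP01 with Bcl-B held 12.4% of the reads after selection, and 2CDP06 with alphaMCL1 held 13.1% of those before. The sources do not tell which axis held the DNA-binding fusion, and pairs are named by whether the member was the row or the column.

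Changes are given as the log2 of a pair's share of library reads after selection over its share before, with 1 read added to each count. A share falls when other pairs take over the library, and the median over all pairs was −1.60 in L45, −2.09 in L66, −2.77 in L44 and −2.29 in L49. A value of 0 is therefore a share that held while most pairs lost ground.

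XCDP07 was the inhibitor with the highest mean change over the Bcl pool with Bcl-w in either orientation. With Bcl-w as the row, XCDP07 had 1181, 7469, 19293 and 1 reads after selection in L45, L66, L44 and L49, against 784, 966, 424 and 7 reads before. These are log2 changes of 0.74, 2.91, 5.44 and −1.96. With Bcl-w as the column it had 2028, 9197, 2262 and 3 reads after, against 2188, 763, 45 and 17 before, which are changes of 0.04, 3.56, 5.56 and −2.13. L66 and L44 were high in both orientations, and L49 was low on very few reads. In L45 the share rose with Bcl-w as the row and held with Bcl-w as the column. High values with XCDP07 were not particular to Bcl-w. In L66 it had 2.96 and 2.95 with Bcl-xL as row and column, and 3.03 and 3.43 with Mcl1. In L44 it had 5.49 and 6.22 with Bcl-xL and 3.88 and 6.08 with Bcl-B, and in L49 4.59 and 4.08 with Bcl-B. Bfl-1 was low with it in L66, at −1.49 and −1.70, and Bcl-2 as the row in L44, at −3.90.

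A fit of all 4 sets together, edgeR's quasi-likelihood test with the library set as a block, used the 225 ordered pairs that all sets hold. Across all pairs 12.4% were called higher and 16.4% lower at a Benjamini-Hochberg adjusted p under 0.05, and the median pair lay at −0.71 on the log2 scale of that fit. None of the 29 Bcl-w pairs was called higher, and 7 were called lower, with 2 higher and 7 lower where p was under 0.05 before adjustment. Of all 225 pairs 35 were higher and 60 lower at that unadjusted level. DESeq2, which called 22.7% of all pairs higher and 23.6% lower, called 4 Bcl-w pairs higher and 7 lower. The 4 were XCDP07 in both orientations and BCDP01 and 2CDP06 with Bcl-w as the row. XCDP07 came closest to a call among the higher pairs, at 3.13 ± 1.41 (SE) with Bcl-w as the row (adjusted p = 0.076) and 3.06 ± 1.43 with Bcl-w as the column (adjusted p = 0.089). Without L49, the set with few Bcl-w reads, edgeR called both, at 4.07 ± 1.31 (adjusted p = 0.021) and 4.19 ± 1.51 (adjusted p = 0.037), and it then called none of the 29 pairs lower. Without L44 the same pairs stood at 2.25 ± 1.27 (edgeR, adjusted p = 0.177) and 1.93 ± 1.24 (adjusted p = 0.233), and without L66 at 2.56 ± 2.15 and 2.15 ± 1.26 (adjusted p = 0.451 and 0.274). With library sizes in place of TMM scaling they stood at 0.80 ± 1.79 and 0.70 ± 1.91 (edgeR, adjusted p = 0.684 and 0.740). Of all pairs it called 13.3% higher and 4% lower without L49. The number of Bcl-w pairs called lower was also 0 without L45 and 0 with no block, 1 without L66 and 6 without L44. Over all 225 pairs these fits called 2, 1, 3 and 29 lower, against 37 with every set and the block. The 6 pairs without L44 were not all among the 7. Of the 7, only alphaMCL1, alphaBCLB and Bcl-2 with Bcl-w as the column stayed called there (edgeR, adjusted p = 0.028, 0.0082 and 0.029). The self pair and the row pairs with Mcl1, Bcl-2 and alphaBCLB lost their call whichever set was left out.

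2 further inhibitors had positive mean changes over the Bcl pool, but with Bcl-w as the row only. BCDP01 had changes of 0.67, 2.04, 3.22 and −1.81 in L45, L66, L44 and L49 with Bcl-w as the row, and −1.59, −1.68, 2.31 and −4.33 with Bcl-w as the column. 2CDP06 had changes of −1.48, 2.12, 3.01 and 0.64 with Bcl-w as the row, and −2.25, 1.33, −4.49 and −3.10 with Bcl-w as the column. Over the 4 sets 2CDP06 was thus above 0 in 3 sets in the one orientation and in 1 set in the other. In the 4-set fit the row pairs stood at 2.33 ± 1.28 for BCDP01 (adjusted p = 0.153) and 2.30 ± 1.25 for 2CDP06 (adjusted p = 0.145), by edgeR's quasi-likelihood test, neither past the threshold. DESeq2 called both, at 2.82 ± 0.98 for BCDP01 (adjusted p = 0.011) and 2.86 ± 0.91 for 2CDP06 (adjusted p = 0.0054).

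alphaBCL2 split between the sets of the Bcl pool. With Bcl-w as the row it had changes of −2.06, 0.81, −0.83 and −2.29 in L45, L66, L44 and L49, and with Bcl-w as the column −2.38, 1.26, −1.06 and −2.72. Only L66 was above 0, in either orientation. FECM04 was the fifth by mean as a row partner, with changes of −1.88, −1.27, −0.73 and −4.82, none above 0.

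alphaMCL1 and alphaBCLB were at the low end. With Bcl-w as the column, alphaMCL1 had changes of −3.93, −2.14, −3.74 and −5.42 in L45, L66, L44 and L49, and was lower after selection by edgeR's 4-set fit, at −2.62 ± 0.71 (adjusted p = 0.0030). With Bcl-w as the row the same inhibitor had −4.37, −2.63, 3.86 and −4.55. L44 stood apart there, with 23879 reads after selection against 1576 before. alphaBCLB had −3.29, −3.26, −2.24 and −5.29 with Bcl-w as the column and −3.61, −1.996, −3.13 and −2.82 with Bcl-w as the row. Both alphaBCLB pairs were lower, at −2.30 ± 0.68 (edgeR, adjusted p = 0.0063) and −1.83 ± 0.68 (edgeR, adjusted p = 0.030).

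**Figure D1:**
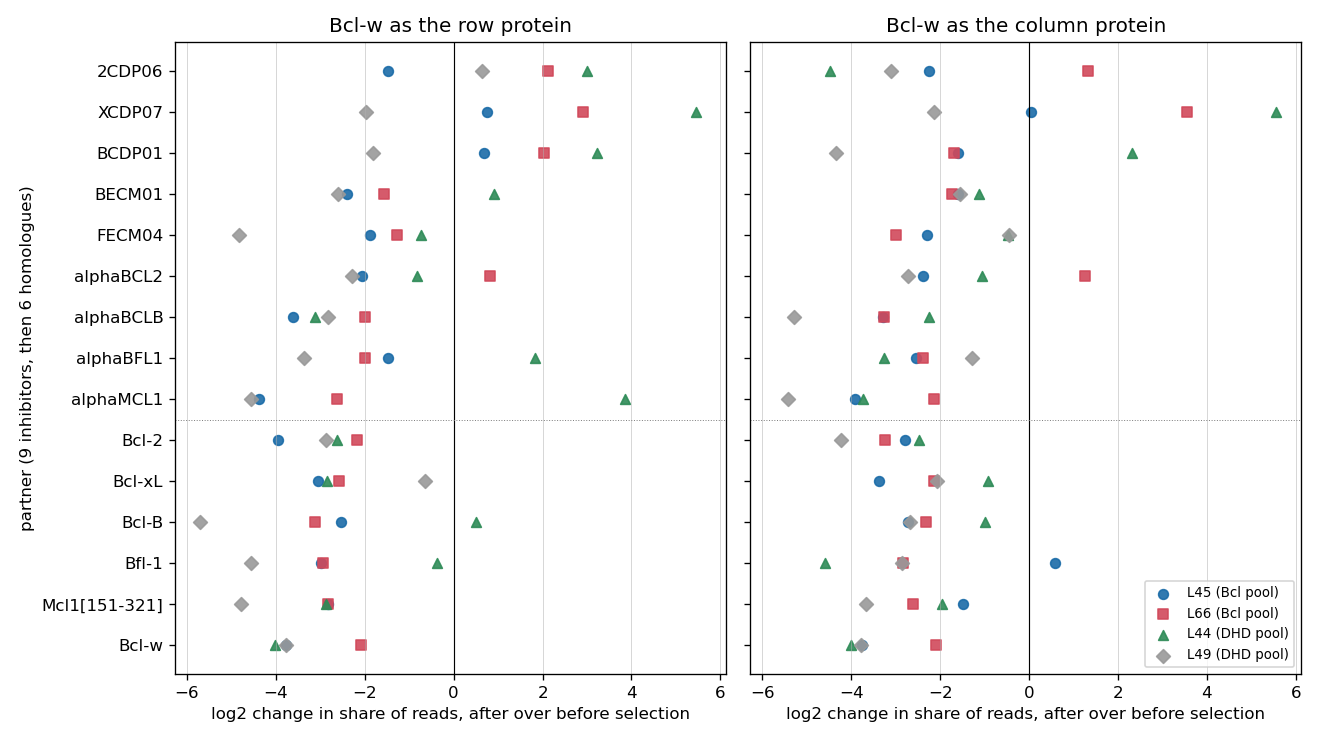
Log2 change in share of reads, after over before selection, for Bcl-w with each inhibitor and homologue, as the row protein on the left and the column protein on the right, with 1 point per library set. XCDP07 lies at or above 0 in L45, L66 and L44 in both panels and at −1.96 and −2.13 in L49, while pairs with other homologues lie mostly between −2 and −5.

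None of the 9 inhibitors carries Bcl-w in its name. Taken over the 9 inhibitors in both orientations, the median of the 18 Bcl-w pairs was −2.16 in L45, −1.62 in L66, −0.61 in L44 and −2.66 in L49. The mean of these medians was −1.76, and 0.43 once each set was centred on the median of all its pairs. A change of at least 1 was reached by 0 of these 18 pairs in L45, where 13.8% of all pairs reached it, and by 6 in L66, against 18% of all pairs. In L44 it was 7 of 18 against 4.86% of all pairs, and in L49 it was 0 of 18 against 7.39%. Among pairs of an inhibitor with one of the 5 other homologues the shares were 32.2% in L45, 38.9% in L66, 54.4% in L44 and 33.3% in L49.

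By its median, Bcl-w was at the low end of the family with these inhibitors. Of the 6 homologues Bcl-w had the lowest inhibitor median in 3 sets and the lowest but one in the fourth, L44, where Bcl-2 was lower. In L66 Mcl1 was close, at −1.55. By pairs reaching a change of 1, Bcl-w was lowest only in L45 and L49. In L66 it had 6, as had Bcl-2, against 5 each for Bcl-B and Mcl1, and in L44 it had 7 against 6 for Bcl-2. Bcl-xL had inhibitor medians of −1.37, 1.94, 0.61 and −0.48 in L45, L66, L44 and L49, each above that of Bcl-w. The mean over the 4 sets was −1.76 ± 0.88 for Bcl-w and 0.18 ± 1.43 for Bcl-xL (SD, n = 4 each), a difference of −1.94. An exact two-sided sign-flip permutation test over the 4 sets gave p = 0.125 for this difference (adjusted p = 0.188 over 3 such tests), which is the smallest p that 4 sets allow. Bcl-w was lower than Bcl-2 in 3 of 4 sets, with a mean difference of −1.01 ± 2.06 (SD, n = 4; exact permutation p = 0.375, adjusted p = 0.375).

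**Figure D2:**
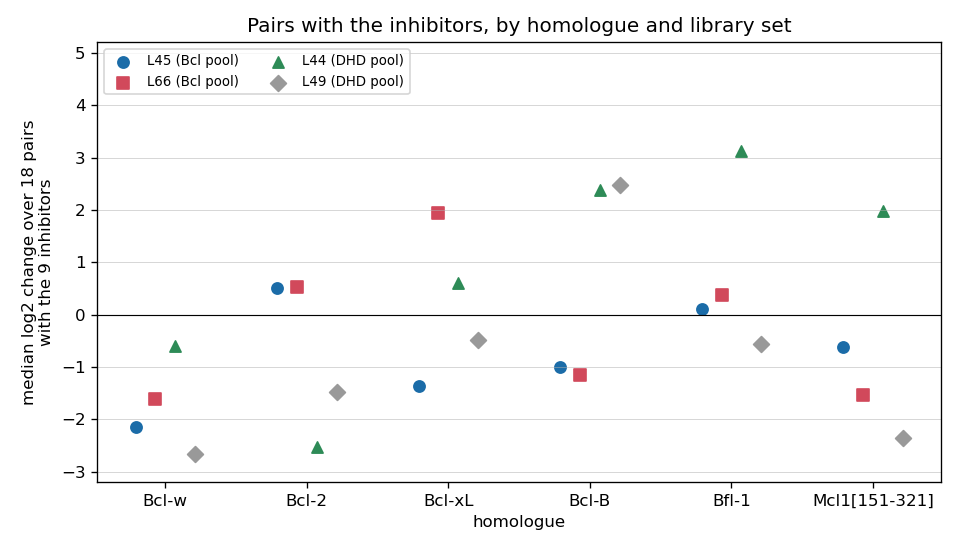
Median log2 change over the 18 pairs of each homologue with the 9 inhibitors, with 1 point per library set. Bcl-w spans −2.66 to −0.61 and is the one homologue with all 4 points below 0, whereas Bcl-xL spans −1.37 to 1.94.

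By mean correlation over inhibitor and homologue partners together, Bcl-w was most like Bcl-xL and Bcl-2. The mean Pearson correlation of partner profiles, over 4 sets and both orientations with 13 shared partners each, was 0.46 with Bcl-xL and 0.45 with Bcl-2. It was 0.30 with Bcl-B, 0.25 with Mcl1 and 0.15 with Bfl-1. Within the 8 profiles the correlation with Bcl-xL lay between 0.25 and 0.69, so the leading values overlap. With Bcl-2 it lay between 0.055 and 0.70. The ranking differed over the 18 inhibitor pairs alone in L66. There the Pearson correlation was 0.48 with Bcl-2, 0.38 with Mcl1 and 0.28 with Bcl-xL. The median absolute difference was smallest with Mcl1, at 0.80, against 1.25 with Bcl-2 and 1.86 with Bcl-xL. These values share libraries and inhibitors and are a description only.

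The median over pairs of Bcl-w with inhibitors lay above that over its pairs with other homologues in every set, a difference that 4 sets cannot call. The median over the 10 homologue pairs was −2.81 in L45, −2.72 in L66, −2.21 in L44 and −3.27 in L49. The inhibitor median exceeded it in 4 of 4 sets, by 0.99 ± 0.47 on the log2 scale (SD, n = 4; exact permutation p = 0.125, adjusted p = 0.188). 3 homologue pairs were among the 7 pairs called lower. Bcl-2, the founding antiapoptotic member, had changes of −3.94, −2.18, −2.63 and −2.87 in L45, L66, L44 and L49 with Bcl-w as the row and −2.79, −3.23, −2.47 and −4.23 with Bcl-w as the column. Both passed edgeR's 4-set fit, at −1.92 ± 0.70 (adjusted p = 0.029) and −2.05 ± 0.66 (adjusted p = 0.010). Mcl1 with Bcl-w as the row had −2.82, −2.83, −2.88 and −4.77, called lower at −2.18 ± 0.83 (edgeR, adjusted p = 0.034).

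Bcl-w with itself had 44, 205, 18 and 0 reads after selection in L45, L66, L44 and L49, against 679, 857, 293 and 13 before. These were changes of −3.76, −2.09, −4.02 and −3.77, and edgeR's 4-set fit called the self pair lower, at −2.44 ± 0.86 (adjusted p = 0.023). In L66 the self pair lay at the median of all pairs of the set. Among the lowest partners in the Bcl pool were also Bfl-1 with Bcl-w as the row, at −2.98, −2.93, −0.36 and −4.55, and Bcl-xL with Bcl-w as the column, at −3.37, −2.13, −0.92 and −2.08. FECM04 with Bcl-w as the column had −2.30, −3.00, −0.48 and −0.44. None of these 3 pairs was called in the 4-set fit, and the remaining Bcl-w pairs had means over the 4 sets between −2.71 and −1.25. One homologue pair went the other way in 1 set. Bfl-1 with Bcl-w as the column had 3366 reads after against 2496 before in L45, a change of 0.59, while L66, L44 and L49 had −2.84, −4.58 and −2.85.

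Tested on L45 and L66 alone, the Bcl pool gave no calls by edgeR when the pairing of libraries within a set was left out. edgeR's quasi-likelihood test called 0% of 225 pairs higher and 0% lower, although before adjustment 21 had a p under 0.05 on the higher and 9 on the lower side, of which 1 was a Bcl-w pair. XCDP07 stood at 4.30 ± 1.78 with Bcl-w as the column and 4.03 ± 2.06 with Bcl-w as the row (adjusted p = 0.357 and 0.365). Without the L66 library after selection these values were 1.06 ± 1.30 and 0.33 ± 1.16 (edgeR, adjusted p = 0.719 and 0.926). With the library set as a block 10.7% of pairs were called higher and 8.89% lower, among them 3 Bcl-w pairs, all lower. These were the self pair at −1.50 ± 0.52 (adjusted p = 0.030), alphaMCL1 with Bcl-w as the row at −2.07 ± 0.66 (adjusted p = 0.024) and alphaBCLB with Bcl-w as the column at −1.85 ± 0.67 (adjusted p = 0.038). DESeq2, with 17.3% of all pairs higher and 5.78% lower, called 3 Bcl-w pairs higher and 0 lower.

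The 2 forms of Bcl-w can be compared in L66, where they met the same partners in the same libraries. Bcl-w-trunc held 54310 reads after selection and 61453 before as the row protein, and Bcl-w held 45029 and 62329. As the column protein Bcl-w-trunc held 23106 and 66954 reads, and Bcl-w held 35675 and 63778. There was 1 library set, so the differences between forms have no replicate check, and the 95% intervals given cover counting error only.

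Both forms had high shares with the same inhibitors as row proteins. With Bcl-w-trunc as the row, 2CDP06 had a change of 2.56, BCDP01 of 2.61, XCDP07 of 2.22 and alphaBCL2 of 1.71, against 2.12, 2.04, 2.91 and 0.81 with Bcl-w. At least 1 was reached by 4 of 9 row inhibitors with Bcl-w-trunc and 3 with Bcl-w, and those 3 were also among the 4. Over the 18 inhibitor pairs of each form the median absolute difference was 0.64, the smallest among all 21 pairings of the 7 homologue proteins in L66. The next was Bcl-B against Mcl1 with 0.65, so the gap is narrow. The Pearson correlation of the forms over these pairs was 0.86, with shared libraries and inhibitors, and the highest other value was 0.69 for Bcl-2 with Bcl-xL.

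The forms parted on the column side. With 2CDP06, Bcl-w-trunc as the column had 992 reads after selection and 2779 before, a change of −1.52, whereas Bcl-w had 7222 and 2808, a change of 1.33. The difference of Bcl-w-trunc minus Bcl-w was −2.85 (95% interval −2.97 to −2.73). With alphaBCL2, Bcl-w-trunc had 1260 and 3488 reads, a change of −1.50, and Bcl-w had 8807 and 3598, a change of 1.26, so the difference was −2.76 (−2.87 to −2.65). In both pairs the forms had like read numbers before selection and differed after it.

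As row proteins with the same inhibitors the truncated form was the higher one. With 2CDP06 the difference was 0.43 (0.34 to 0.52) and with alphaBCL2 it was 0.90 (0.82 to 0.98). The inhibitor that favoured Bcl-w-trunc most was FECM04, at 0.17 against −1.27 as the row, a difference of 1.44 (1.33 to 1.56), and −1.79 against −3.00 as the column, a difference of 1.22 (1.05 to 1.38). Next after FECM04 and alphaBCL2 came alphaBFL1 with 0.84 (0.70 to 0.98) as the row. XCDP07 with the member as the column hardly separated the forms, at 3.42 for Bcl-w-trunc and 3.56 for Bcl-w, a difference of −0.13 (−0.27 to 0.011).

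Over the 9 inhibitors the median difference was 0.47 with the members as rows, with 6 of 9 higher for Bcl-w-trunc, and −0.59 with the members as columns, with 2 of 9 higher. BECM01 at −1.07 (−1.23 to −0.90) and alphaMCL1 at −0.95 (−1.13 to −0.78) were the next lowest column pairs. The gap between orientations in L66 was wider for the truncated form. Its row value exceeded its column value for 8 of 9 inhibitors, with a median gap of 1.83, against 6 of 9 and 0.40 for Bcl-w in the same set. In L45, L44 and L49 Bcl-w likewise had 6 of 9 inhibitors higher as the row, with median gaps of 0.43, 0.91 and 0.43.

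Homologue partners separated the forms little as rows and more as columns. The median absolute difference was 0.11 over the 5 homologue pairs with the members as rows and 0.73 over the 5 with the members as columns, against 0.57 and 0.95 over the 9 inhibitor pairs of each orientation. Over all 10 homologue pairs the Pearson correlation of the forms was 0.064. It was 0.97 over the 5 row pairs and −0.27 over the 5 column pairs. The largest difference was for Bfl-1 with the member as the column, at −1.82 for Bcl-w-trunc and −2.84 for Bcl-w, a difference of 1.02 (0.86 to 1.17). Bcl-xL with the member as the column differed by −0.74 (−0.87 to −0.60). No homologue pair of either form reached a change of 1. The pair of Bcl-w-trunc as the row with Bcl-w had 1125 reads after and 9567 before (−3.12), the reverse pair had 1187 and 10047 (−3.11), and Bcl-w-trunc with itself had 928 and 5569 (−2.62), all below the set's median.

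**Figure D3:**
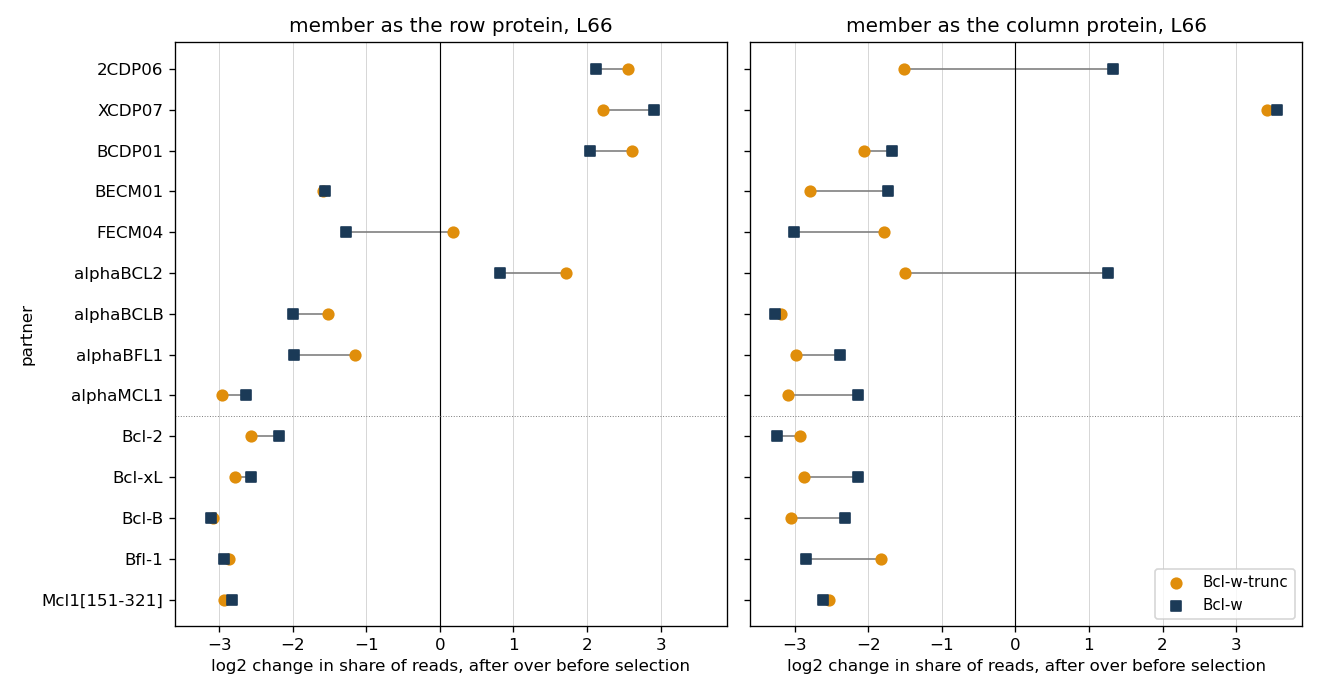
Log2 change in share of reads, after over before selection, in L66 for Bcl-w-trunc (circles) and Bcl-w (squares) with each partner, members as rows on the left and as columns on the right. A line connects the 2 forms of each pair, and the longest, for 2CDP06 and alphaBCL2 as column pairs, join −1.52 and −1.50 for Bcl-w-trunc with 1.33 and 1.26 for Bcl-w.

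The gaps between forms can be set beside the gap between sets for Bcl-w itself. Over the same 28 partner orientations the median absolute difference between forms in L66 was 0.52, and the median absolute difference of Bcl-w between L66 and L45 was 0.99. The column pair with 2CDP06 moved by as much between sets as between forms, since Bcl-w had 1.33 in L66 and −2.25 in L45. The column pair with alphaBCL2 did likewise, with 1.26 in L66 and −2.38 in L45. Whether the difference between forms recurs in a second set was therefore not tested.

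In the DHD pool Bcl-w also met 322 designs outside the Bcl family. Their median change was −2.68 in L44 and −2.55 in L49 with Bcl-w as the row, and −3.45 and −3.42 with Bcl-w as the column. In L44 only 2 of these designs, B_HT_DHD_31 and mALb8_cutT3_A, exceeded XCDP07 as row partners of Bcl-w, and none did as column partners. Both designs were picked out after their values were seen. B_HT_DHD_31 had 14539 reads after and 316 before in L44, but 0 and 4 in L49, and mALb8_cutT3_A had 35216 and 461 in L44, but 1 and 14 in L49. In L49 100 designs exceeded XCDP07 as row partners and 46 as column partners, on a pair with 7 and 17 reads before selection.

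At least 10 reads before selection in both replicates were found for 281 designs as column partners and for fewer as row partners. Among all pairs of the pool with that depth 2.06% lay above 0 in both replicates, and of the Bcl-w pairs with these designs 0 did. The designs with the highest lower replicate were A_HT_DHD_60 as a row partner, at −1.56 in L44 and −1.55 in L49, and A_HT_DHD_91 as a column partner, at −1.84 and 1.502. The next row partners were A_ZCON_162, A_HT_DHD_78, A_HT_DHD_61 and ZCON_154_LL_B, with lower replicates of −1.67 to −1.96. The next column partners were DHDr2_11_A, ZCON_154_resurf_B, mALb8_cutT2_A and A_HT_DHD_85, with −1.86 to −2.47.

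edgeR's quasi-likelihood test called 0% of 110004 pairs of the DHD pool in either direction, while before adjustment 3832 pairs had a p under 0.05 on the higher side and 3517 on the lower. Of the 646 Bcl-w pairs tested 4 were higher and 44 lower at that level. DESeq2 called 7.79% of all pairs higher and 0.0809% lower, and 15 Bcl-w pairs higher and 1 lower. It gave no adjusted p for 573 of the 646, nor for 85309 of all 110004 pairs. XCDP07 stood at 7.89 ± 4.36 with Bcl-w as the row and 6.15 ± 2.80 with Bcl-w as the column, both with an adjusted p of 0.664. Without the L44 library after selection they stood at −2.77 ± 1.71 and 0.21 ± 1.498 (edgeR, adjusted p = 0.273 and 0.938). The replicates of these pairs had opposite signs.

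**Figure D4:**
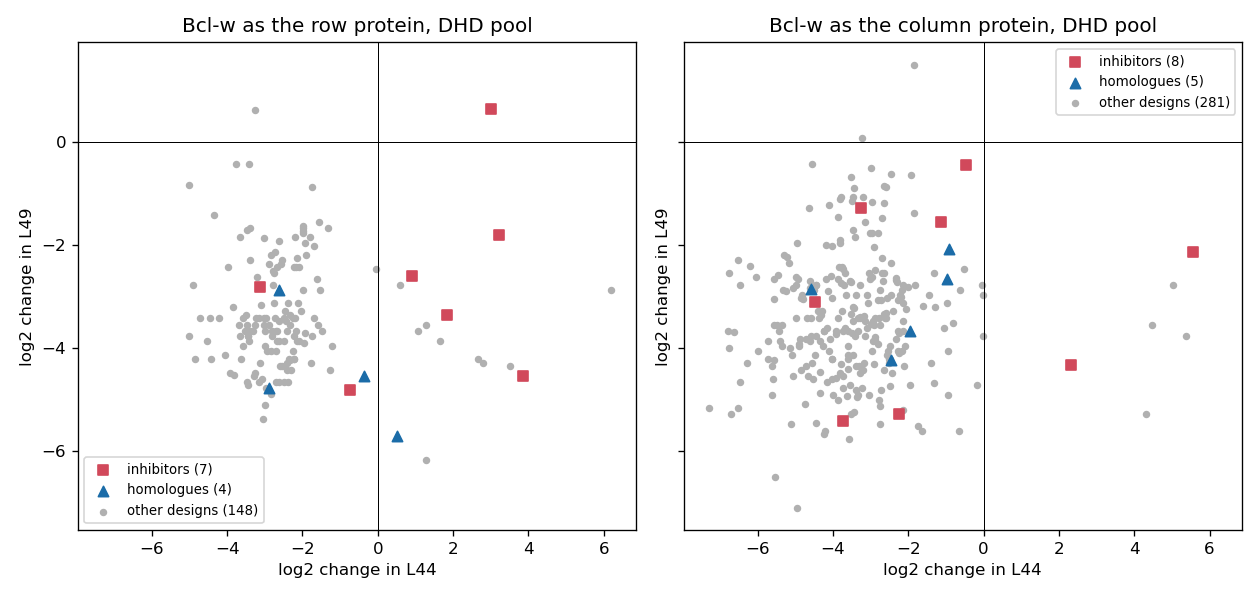
Log2 change of Bcl-w pairs in L44 (horizontal) against L49 (vertical) for partners with at least 10 reads before selection in both, with inhibitors as squares, homologues as triangles and other designs as grey points. In the left panel 1 inhibitor, 2CDP06, lies above 0 in both sets at 3.01 and 0.64, and in the right panel no partner does.

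In the Coiled pool both forms had few reads before selection, and Bcl-w the fewer. The median pair of the pool had 1052 reads before selection in L71 and 700 in L72. The median pair of Bcl-w-trunc had 5 and 3 as the row and 18 and 9 as the column. That of Bcl-w had 1 and 0 as the row and 8 and 3 as the column. Bcl-w as the row had 81 and 163 reads after selection in L71 and L72, against 866 and 401 before, and as the column 112 and 468 after against 2719 and 1732 before. Bcl-w-trunc had 5861 and 12035 reads after against 1769 and 1693 before as the row, and 16113 and 2113 after against 3662 and 2702 before as the column. Pairs with the 9 inhibitors had at most 37 reads in all before selection in any set and orientation, so the inhibitors gave no reading there. Of 544 pairs with a member, 160 averaged at least 10 reads per library and were tested.

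Most reads of Bcl-w-trunc after selection belonged to pairs with variants of PUMA, a proapoptotic BH3 protein, in L71 as the column and in L72 in both orientations. These variants were chosen for description after their values were seen. Summed over the 13 variants, Bcl-w-trunc as the column had 15106 reads after and 558 before in L71 (log2 change 5.21) and 1748 after and 454 before in L72 (1.64). Bcl-w as the column had 11 after and 275 before in L71 (−4.07) and 25 after and 358 before in L72 (−4.09). As the row, Bcl-w-trunc had 142 after and 397 before in L71 (−1.03) and 10625 after and 300 before in L72 (4.84), and Bcl-w had 0 after and 117 before in L71, and 3 after and 41 before in L72 (−3.69). The sums of the truncated form were above those of Bcl-w in both sets and both orientations.

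Single variants carried those sums, and not the same ones in both replicates. As the column, Bcl-w-trunc with PUMA_M144A_D147G had 12056 reads after and 162 before in L71, but 1 and 9 in L72. PUMA_M144A_Y152A had 4 and 40 in L71, but 1170 and 62 in L72. As the row, PUMA_M144A_A139G had 0 and 5 in L71, but 10535 and 109 in L72. PUMA_M144A_I137A was the one variant above 0 in both replicates with at least 10 reads before in each, at 3.35 and 0.49 with Bcl-w-trunc as the row. As rows, rises in 1 replicate were not particular to PUMA. In L71, 5719 of the 5861 row reads of Bcl-w-trunc after selection belonged to partners outside PUMA, the inhibitors and the homologues. With at least 10 reads before in both sets, 5 of 20 such row pairs reached a change of 1 in 1 set only, against 1 of 4 with PUMA variants. Among column pairs it was 0 of 51 against 3 of 8.

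Without the variant that had most reads after selection in each sum, Bcl-w-trunc as the column stood at 3.39 in L71 and 0.26 in L72. Of the 3050 reads then left after selection in L71, 3017 belonged to PUMA_M144A_E136G, which had 60 reads before, and this variant had 0 reads after and 18 before in L72. As the row it stood at −4.04 in L71 and −1.38 in L72, the second with its sign turned. edgeR's quasi-likelihood test called 0.972% of 15532 pairs of the pool higher and 0% lower, and none of the 160 member pairs. Before adjustment 6 member pairs were higher and 4 lower with a p under 0.05, against 1637 and 1449 of all 15532 pairs. The lowest adjusted p of a member pair was 0.155, for Bcl-w-trunc as the row with PUMA_M144A_I137A at 4.88 ± 1.16. DESeq2, with 13% of all pairs higher and 2.19% lower, called 13 member pairs higher and 0 lower. No pair of either form with at least 10 reads before in both sets reached a change of 1 in both, against 4.29% of all pairs of that depth.

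**Figure D5:**
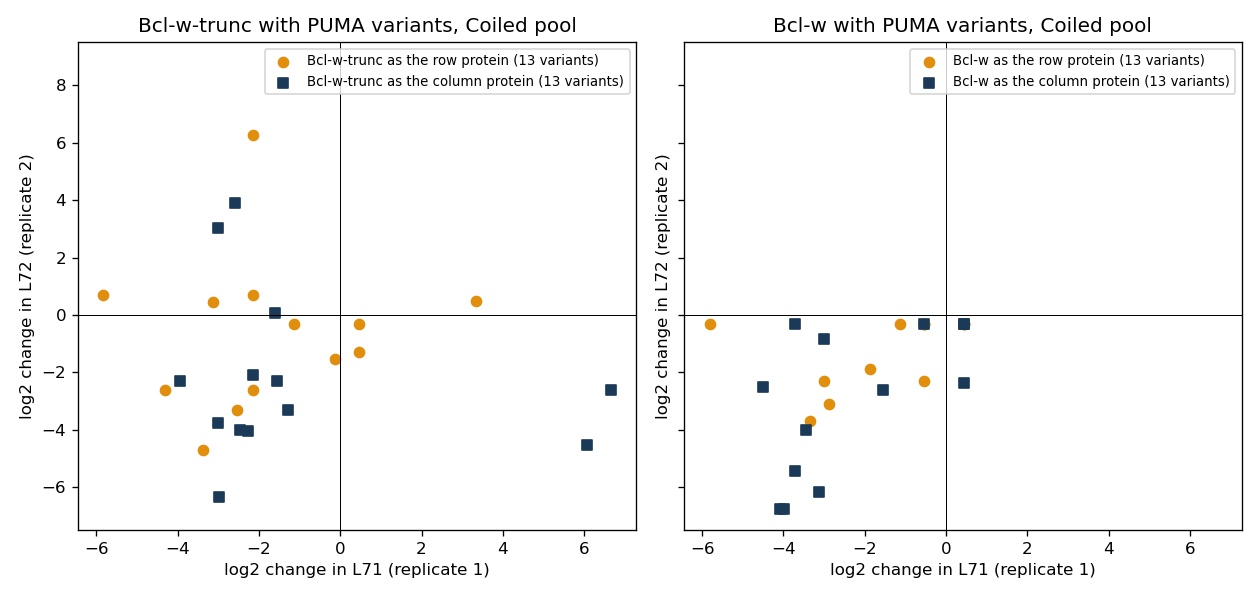
Log2 change in L71 (horizontal) against L72 (vertical) for each of the 13 PUMA variants with Bcl-w-trunc on the left and Bcl-w on the right, members as rows (circles) or columns (squares). Bcl-w-trunc has points above 3 in 1 set or the other, of which only PUMA_M144A_I137A as a row pair, at 3.35 and 0.49, is above 0 in both sets, and no variant with Bcl-w reaches 1 in either set.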

How the data were processed

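Barcode pairs were counted by the authors. The deposited files are square matrices of raw read counts by row and column protein, without normalization, plus barcode maps. DESeq2 is named in the submitters' processing notes, and its version and the read matching are not given in the sources used here. Empty cells were taken as 0 reads, the suffix _swap of names in L44 was dropped to match L49, and technical runs of L71 and L72 were summed.

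Pairs averaging 10 or more reads over the libraries of a fit were tested with edgeR 4.0.16 in R 4.3.3 (glmQLFit with robust estimation, glmQLFTest, TMM factors, Benjamini-Hochberg over all pairs tested). SE was taken as the size of the log2 change over the root of F. Library totals lay between 508736 and 34925075 reads. Intervals assume Poisson counts, cover counting error only, and are too narrow where reads are not independent molecules. The labels of the Bcl pool give no replicate numbers, so L45 and L66 were taken as replicates, and p-values measure the spread between sets that may not be separate cultures.

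The labels give the libraries before and after selection a shared library set, which pairs them. The correlation of their deviations from group means was 0.804 (Bcl pool), 0.326 (DHD pool) and 0.260 (Coiled pool). The pool fits left the pairing out and the 4-set fit kept it.

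Pairs were named by a rule: self pairs and pairs between forms, the 5 highest and 5 lowest partners in the Bcl pool, the 5 largest form differences each way, calls of the 4-set fit, 5 DHD designs per orientation by the lower replicate, and the 2 homologues most like Bcl-w. Members, lists and rule were chosen with earlier results of these data known. Other settings tried were library sizes with no TMM, DESeq2 1.42.0, other filters and pseudocounts, centring, the block, and libraries left out. Fits were tested on simulated data. Python 3.11.15, scipy 1.17.1 and matplotlib 3.10.9 served for the rest.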

Additional observations from a re-analysis of the deposited data

Results flagged for a closer look

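Among the 29 Bcl-w pairs, 2 had 1 library set far from the other 3 by Dixon's criterion for 4 values, which chance alone meets in about 1 of 20 groups. Bcl-w as the row with Mcl1 had −4.77 in L49, on 0 reads after and 27 before selection, against −2.82, −2.83 and −2.88 in L45, L66 and L44. The Bcl-w self pair had −2.09 in L66, against −3.76, −4.02 and −3.77 in L45, L44 and L49.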

How the results depend on the processing

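The 4-set fit called 0 Bcl-w pairs higher and 7 lower. With DESeq2 it was 4 higher, with library size in place of TMM 14 lower, and without the replicate block 0 lower. Over all 225 pairs these fits called 51 higher, 95 lower and 1 lower, against 28 higher and 37 lower without these changes. Leaving out 1 library set gave 0 to 2 higher (the 2 without L49) and 0 to 6 lower (0 without L45, 0 without L49, 1 without L66). Over all 225 pairs those fits called 14 to 30 higher and 2 to 29 lower. In the Bcl pool DESeq2 called 3 higher and the replicate block 3 lower, in place of 0. Over all 225 pairs they called 39 higher and 20 lower. In the DHD pool, with 0 calls, DESeq2 gave 15 higher and 1 lower, and leaving out 1 library gave 0 to 34 higher and 0 to 27 lower. In the Coiled pool, with 0 calls, DESeq2 gave 13 higher, library size 22 lower, and leaving out 1 library 0 to 10 higher. The replicate block changed no other count of member pairs by over 1.5 times. Over all 110004 pairs of the DHD pool DESeq2 called 8573 higher and 89 lower. Over all 15532 pairs of the Coiled pool DESeq2 called 2016 higher and library size 8646 lower. Leaving out a library after selection left 1 in that group, and in both pools the calls over all pairs rose as well. By library size the row pairs with BCDP01 and 2CDP06 turned to −0.23 and −0.74 in the 4-set fit, and those with XCDP07 came to 0.80 as the row and 0.70 as the column, in place of 3.13 and 3.06. With 1 library left out the XCDP07 pairs of the Bcl pool lay between 0.33 and 6.08 as the row and between 1.06 and 5.22 as the column, each lowest without L66 after selection. The row pair with 2CDP06 in the Bcl pool lay between −0.83 (without L66 after selection) and 3.98, and the row pair with XCDP07 in the DHD pool between −2.77 (without L44 after selection) and 9.74. Without its largest variant the PUMA sum of Bcl-w-trunc as the row in L72 turned to −1.38, an alternative chosen after seeing the data. Centred on the median of all pairs, the Bcl-w medians were 0.43 in place of −1.76 for inhibitors and −0.57 in place of −2.75 for homologues. The causes were not tested. Pseudocounts and read minimums moved the medians of forms and profiles by less than their spread. With a pseudocount of 5 Bcl-2 and Bcl-xL changed places as the homologue most like Bcl-w. In L49 and the Coiled pool the low read numbers of the members limit each single value.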
